A study of Mus musculus with 20 samples.

Results

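The core circadian clock genes are 10 transcripts that encode the feedback loop of the cell's daily timer, and they were followed here in the hearts of old mice fed rapamycin or a control diet. The members were taken by name: Arntl, Clock and Npas2, which encode the activators, and Nr1d1, Nr1d2, Per1, Per2, Per3, Cry1 and Cry2, which encode the repressors. All 10 were found among the 34291 rows of the table of gene counts, and all 10 passed the filter on low counts that left 13940 genes for testing. The study sequenced poly(A) RNA of 20 whole hearts from C57BL/6 mice to ask how rapamycin given late in life alters the old heart. In 10 of the animals the food held 14 ppm rapamycin, a drug that blocks the nutrient-sensing kinase mTOR, and 10 age-matched animals ate control food. Feeding started at 24 months of age and lasted 3 months in both groups, so all hearts came from animals of 27 months, and the labels name no transgene or deletion in either group. Neither the time of day at which the hearts were taken nor the sex of the animals is stated in the labels. Hearts carry their diet and label number as names.

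In a mammalian cell, ARNTL (also called BMAL1) pairs with CLOCK or its relative NPAS2, and the pair switches on genes that carry E-box sequences, among them the Per, Cry and Nr1d genes. PER and CRY proteins then return to the nucleus and block the pair, while the nuclear receptors NR1D1 and NR1D2 (REV-ERB alpha and beta) silence Arntl through ROR elements. Arntl RNA therefore reaches its peak at about the opposite time of day to Nr1d1 and the Per RNAs. Heart muscle cells run this clock themselves and use it to time fuel use and ion channel expression.

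Stretches at the starts of 4 members are shown because Arntl and the repressors lay on opposite sides of 0 in the comparison of diets. Windows of 250 bases before and 50 after each annotated start (RefSeq, GRCm38.p6) were held for 9 of the 10 members, in 13 windows. They were searched on both strands for the E-box CACGTG, its variant CACGTT (the E-prime box), the D-box TTATGTAA, the ROR element core TAGGTCA and the cAMP response element TGACGTCA. These motifs occurred in 7.15%, 4.68%, 0.938%, 2.61% and 1.79% of all 32851 windows of the same length, and a match is a run of letters and not a shown binding site. Among the members, 6 held at least 1 match. The share of all windows with at least 1 of these motifs is not given here, so that count has no background beside it. The bases before the start of Per1, Per3 and Cry1 are printed, and 30 bases around the match in Arntl, each 5′ to 3′ on the gene's strand with the matched letters in capitals.
Arntl, chr7:113207530-113207559, plus strand: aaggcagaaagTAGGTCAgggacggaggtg
Per1, chr11:69098699-69098948, plus strand: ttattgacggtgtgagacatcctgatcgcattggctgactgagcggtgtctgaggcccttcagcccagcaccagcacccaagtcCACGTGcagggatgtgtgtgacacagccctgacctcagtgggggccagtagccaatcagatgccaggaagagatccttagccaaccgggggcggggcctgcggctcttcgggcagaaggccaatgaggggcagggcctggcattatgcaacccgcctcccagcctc
Per3, chr4:151044666-151044915, minus strand: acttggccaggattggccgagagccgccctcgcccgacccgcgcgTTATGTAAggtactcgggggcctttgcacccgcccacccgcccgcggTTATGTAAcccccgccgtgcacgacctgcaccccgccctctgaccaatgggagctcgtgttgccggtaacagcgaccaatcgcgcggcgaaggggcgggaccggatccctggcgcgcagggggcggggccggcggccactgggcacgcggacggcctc
Cry1, chr10:85185055-85185304, minus strand: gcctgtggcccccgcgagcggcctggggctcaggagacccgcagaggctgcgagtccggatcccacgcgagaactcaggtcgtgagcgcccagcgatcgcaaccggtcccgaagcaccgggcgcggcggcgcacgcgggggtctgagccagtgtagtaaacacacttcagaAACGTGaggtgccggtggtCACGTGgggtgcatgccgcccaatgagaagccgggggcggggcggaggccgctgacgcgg

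The Per1 window held 1 E-box, that of Cry1 held 1 E-box and 1 E-prime box, and that of Per3 held 2 D-boxes, the element bound by the clock output factors DBP, TEF, HLF and NFIL3. The ROR element core lay 31 bases downstream of an annotated Arntl start. The windows of Nr1d1 and Cry2 held 1 E-prime box each. The authors' counts were made on an older build, so these coordinates place the sequences only and were not joined to the counts.

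The libraries held 8525162 to 12458309 counts with rapamycin and 7039514 to 10594335 in controls. The 10 cardiomyocyte markers summed to 48090 to 64230 CPM with rapamycin (median 57613) and to 16417 to 59924 CPM in controls (median 46473). The lowest value was that of control 19, and it lay below the sum of lung genes in the same library. Summed over 5 lung genes, control 19 held 23990 CPM, against a median of 1.65 over the 20 libraries, and control 1 (351 CPM), rapamycin 15 (136 CPM) and control 20 (60.7 CPM) also exceeded 10 times that median. Beside 0.638% of all genes tested that rose and 2.48% that fell, 8 of 14 macrophage markers fell with rapamycin and none rose, and their summed level was 545 to 1037 CPM with rapamycin and 751 to 3585 CPM in controls. The 3585 CPM was that of control 19, where RNA of lung and of heart cannot be told apart. The next highest control was control 2 at 1505 CPM. Of 18 immediate early genes, a class switched on quickly by stress or growth signals, 3 rose (Egr1, Cyr61 and Dusp1) and none fell, and their summed level was 440 to 1141 CPM with rapamycin (median 721) and 407 to 761 CPM in controls (median 474). In whole-heart RNA, fewer cells of a type and less RNA per cell cannot be told apart.

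In the hearts of rapamycin-fed mice all 3 activator transcripts averaged lower and all 7 repressor transcripts averaged higher than in controls, yet no member passed the test over all genes. With edgeR's quasi-likelihood test and Benjamini-Hochberg adjustment, 0 of 10 members had an adjusted p under 0.05, where 3.12% of all genes tested did. At an unadjusted p under 0.05 there were 5 members, Arntl on the lower side and Nr1d2, Per1, Per3 and Cry2 on the higher side. Among all genes 21.5% passed that level, 13.4% lower and 8.1% higher. Without control 19 again 0 of 10 members were called, beside 0.952% of genes that rose and 2.17% that fell; 5 members then had an unadjusted p under 0.05, beside 8.87% of genes that were higher and 10.3% lower. The DESeq2 Wald test called 2 members, Arntl and Nr1d2 (adjusted p = 0.0225 and 0.0349 by DESeq2), where it called 6.95% of all genes. The log2 fold change of rapamycin over control had a median of -0.27 over the activators and 0.19 over the repressors, beside -0.0098 over all genes tested, of which 47.5% lay above 0. No member separated the groups completely, as 0.0717% of genes tested did.

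**Figure D1:**
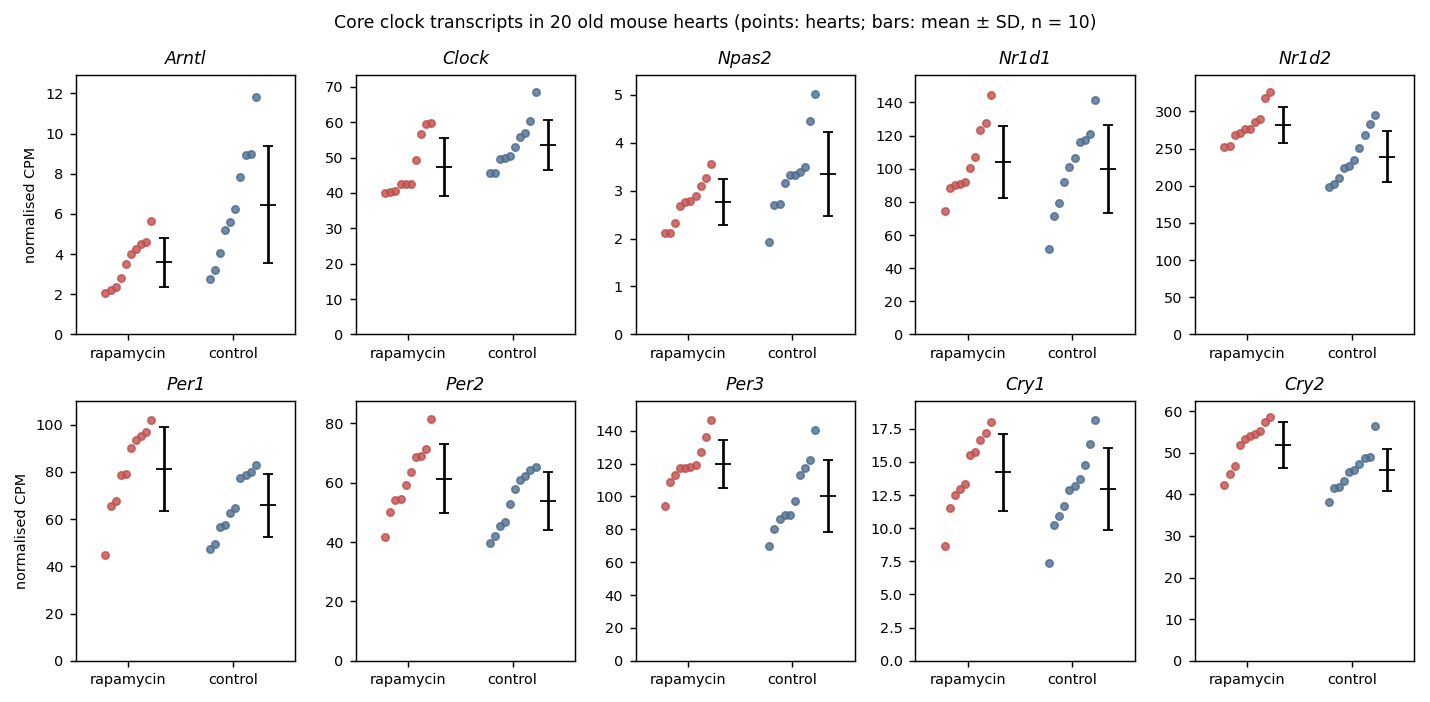
Normalised CPM (vertical axes, from 0) of the 10 clock members in each heart, rapamycin left and control right in each panel; points are hearts, sorted by value, and bars give the mean ± SD (n = 10 per diet). Arntl reached 2.05 to 5.63 CPM with rapamycin and 2.78 to 11.8 CPM in controls, and the groups overlapped for every member.

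Arntl, the activator shared by every active pair, showed the largest difference of the 10. It stood at 2.05, 3.75 and 5.63 normalised CPM with rapamycin (lowest, median and highest of 10 hearts), against 2.78, 5.93 and 11.8 CPM in controls. All 10 rapamycin hearts lay below the control median, 3 of them below every control, and 5 controls (1, 2, 11, 16 and 19) lay above every rapamycin heart. The means were 3.59 ± 1.21 CPM with rapamycin and 6.47 ± 2.89 CPM in controls (SD, n = 10 each), a log2 fold change of -0.85 ± 0.25 (SE, unadjusted p = 0.00247, adjusted p = 0.0598 by edgeR), or 0.557-fold with a 95% interval of -1.36 to -0.33 on the log2 scale. Without control 19 it was -0.78 (adjusted p = 0.0874 by edgeR). Controls 1 and 19, and rapamycin 15 with the highest Arntl of its diet, were among the 4 libraries with lung transcripts. Without those 4 libraries Arntl was not called. Leaving out rapamycin 5, control 10, control 13 or control 20 brought its adjusted p under 0.05 (0.0469, 0.0459, 0.0362 and 0.0370 by edgeR), and none of the other 16 fits without 1 library did. With the level of the cardiomyocyte markers as a covariate the value was -0.66 (adjusted p = 0.274 by edgeR). That fit called 0.359% of all genes tested, against 3.12% without the covariate. All 10 markers had a log2 fold change above 0, and their level was lowest in control 19. The authors' deposited table of 700 selected genes lists Arntl and no other member.

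Arntl is a rare transcript in these libraries, with 20 to 125 reads per heart. At its mean count over both diets, counting alone gives a coefficient of variation of 14.3%, while the hearts varied by 33.6% with rapamycin and 44.7% in controls. The counting value was not computed for each diet, and the mean level was lower with rapamycin. Its biological coefficient of variation of 0.365 stood at percentile 93.1 of all genes tested, whose median was 0.149.

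Clock, the partner that carries the histone acetyltransferase activity, stood at 40.1, 42.6 and 59.7 CPM with rapamycin, against 45.5, 51.7 and 68.5 CPM in controls. Of the rapamycin hearts 6 lay below every control, and 2 controls lay above every rapamycin heart. The log2 fold change was -0.18 ± 0.09 (SE, adjusted p = 0.274 by edgeR), and it was -0.10 with the immediate early level as a covariate and -0.10 with that of the cardiomyocyte markers.

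Npas2, which can take the place of CLOCK, stood at 2.11, 2.78 and 3.55 CPM with rapamycin, against 1.92, 3.32 and 5.01 CPM in controls, with 9 of 10 rapamycin hearts below the control median. Its log2 fold change was -0.27 ± 0.15 (SE, adjusted p = 0.294 by edgeR), and -0.42 when the 4 lung-containing libraries were dropped (adjusted p = 0.138 by edgeR). With 17 to 48 reads per heart, counting alone gives 18.3% at the mean count over both diets. Its variation of 17.3% among rapamycin hearts was no larger than that, and in controls it was 26.1%.

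The genes of the REV-ERB receptors had folds of different size. Nr1d2 stood at 252, 276 and 327 CPM with rapamycin, against 198, 231 and 296 CPM in controls. All 10 rapamycin hearts lay above the control median, and 7 controls lay below every rapamycin heart. This gave a log2 fold change of 0.24 ± 0.08 (SE, unadjusted p = 0.00606, adjusted p = 0.0879 by edgeR), and without control 10, the highest control, it was 0.27 (adjusted p = 0.0431 by edgeR).

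Nr1d1 stood at 74.2, 96.3 and 145 CPM with rapamycin, against 51.7, 104 and 142 CPM in controls, and the groups covered nearly the same range. Its log2 fold change was 0.06 ± 0.15 (SE, adjusted p = 0.860 by edgeR), with a 95% interval of -0.25 to 0.37, and it was below 0 without rapamycin 15 (-0.0039), without control 11 (-0.017) and on library totals without scaling factors (-0.07). In the GENCODE M21 annotation 263 of the 3077 exon bases of Nr1d1 are shared with the opposite-strand gene Thra, the thyroid hormone receptor alpha, and reads there cannot be told apart without a stated strand setting. Thra had a log2 fold change of 0.24 ± 0.09 (SE, adjusted p = 0.115 by edgeR). The difference between the folds of Nr1d1 and Nr1d2 was not tested.

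The Per genes, whose products form the core of the repressing complex, all averaged higher with rapamycin. Per1 stood at 44.9, 84.7 and 102 CPM with rapamycin, against 47.3, 63.6 and 83.1 CPM in controls. Of the rapamycin hearts 5 lay above every control, while rapamycin 15 lay below all of them. Its log2 fold change was 0.31 ± 0.13 (SE, unadjusted p = 0.0317, adjusted p = 0.187 by edgeR). Per1 is also induced by stimuli outside the daily cycle. With the immediate early level as a covariate the Per1 value was 0.16. That level was itself higher with rapamycin (median 721 CPM, against 474 CPM in controls), and the cause of the Per1 difference was not tested.

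Per3 stood at 94.2, 118 and 147 CPM with rapamycin, against 70.1, 93.1 and 140 CPM in controls, with all 10 rapamycin hearts above the control median and 5 controls below every rapamycin heart. The log2 fold change of Per3 was 0.25 ± 0.11 (SE, unadjusted p = 0.0266, adjusted p = 0.171 by edgeR), and it was 0.26 with the immediate early covariate. The hearts varied by 12.1% with rapamycin and by 21.8% in controls, and that difference in spread was not tested.

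Per2 stood at 41.5, 61.5 and 81.3 CPM with rapamycin, against 39.7, 55.4 and 65.4 CPM in controls, and 4 rapamycin hearts lay above every control. The fit gave Per2 a log2 fold change of 0.19 ± 0.11 (SE, adjusted p = 0.345 by edgeR), and it was 0.10 with the immediate early covariate.

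The cryptochromes, which carry most of the repressing activity of the PER-CRY complex, had small differences. Cry2 stood at 42.1, 53.7 and 58.5 CPM with rapamycin, against 38.2, 45.6 and 56.4 CPM in controls, and 8 of 10 rapamycin hearts lay above the control median. It had the lowest biological coefficient of variation of the members (0.115, percentile 27.3 of all genes tested) and a log2 fold change of 0.18 ± 0.07 (SE, unadjusted p = 0.0182, adjusted p = 0.146 by edgeR). When those 4 lung-containing libraries were dropped it was 0.27 and passed (adjusted p = 0.0465 by edgeR). Cry1 stood at 8.67, 14.4 and 18.04 CPM with rapamycin, against 7.38, 13.02 and 18.1 CPM in controls, and the ranges nearly coincide. Its log2 fold change was 0.14 ± 0.14 (SE, adjusted p = 0.602 by edgeR), and it was 0.019 with the immediate early covariate.

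**Figure D2:**
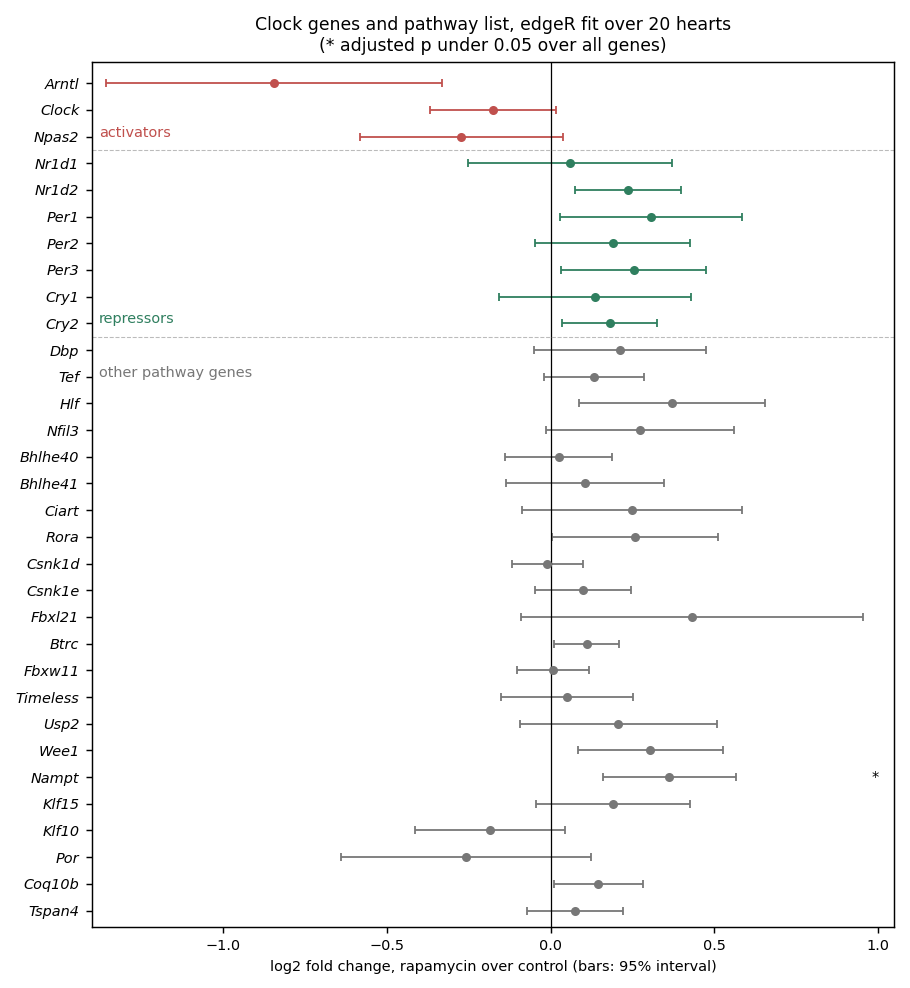
Log2 fold change of rapamycin over control (horizontal axis; bars, 95% interval; edgeR fit over 20 hearts) of the 3 activators, the 7 repressors and the 22 tested genes of the pathway list. The activators lie left of 0, with Arntl at -0.85, the repressors lie right of it, and the asterisk marks Nampt (0.36), whose adjusted p was under 0.05.

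The signs of the members did not rest on 1 setting, apart from Nr1d1. Over 28 alternatives, of which 20 left out 1 library each, the 280 log2 fold changes held 3 that changed sign, all of Nr1d1. On library totals without scaling factors the median of all genes moved to -0.13, and relative to that median all 3 activators were lower and all 7 repressors higher.

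Per kilobase of exon (GENCODE M21 gene models, which are not those of the authors), the repressors outweighed the activators. In rapamycin hearts the level was highest for Nr1d2 (52.1 ± 4.54 CPM per kb, SD, n = 10) and Nr1d1 (33.8 ± 7.08). Per1 (14.5 ± 3.16), Per3 (12.46 ± 1.505) and Per2 (10.5 ± 2.00) came next, and their ranges of mean ± SD overlapped. Cry2 (8.20 ± 0.867), Cry1 (4.26 ± 0.875) and Clock (3.45 ± 0.598) followed, and Npas2 (0.576 ± 0.0995) and Arntl (0.478 ± 0.160) were lowest. In control hearts Nr1d2 stood at 44.3 ± 6.30 CPM per kb and Nr1d1 at 32.4 ± 8.66, and Arntl (0.860 ± 0.384) and Npas2 (0.699 ± 0.182) were again lowest. The order differed between the diets only in neighbours whose SDs overlapped, Arntl with Npas2 and Clock with Cry1.

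The balance of the loop within each heart overlapped between the diets. The mean log2 CPM of the activators minus that of the repressors was -3.59, -3.31 and -2.56 with rapamycin (lowest, median and highest), against -3.36, -2.62 and -1.78 in controls. Of the rapamycin hearts 5 lay below every control, and 5 controls lay above every rapamycin heart. The means were -3.22 ± 0.352 with rapamycin and -2.63 ± 0.479 in controls (SD, n = 10 each), a difference of -0.59, or -0.56 without control 19 and -0.70 without the 4 libraries with lung transcripts. With Arntl and Npas2 set against the Nr1d and Per genes alone it was -0.71. No test was run on this score, since its members were chosen with earlier results known.

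**Figure D3:**
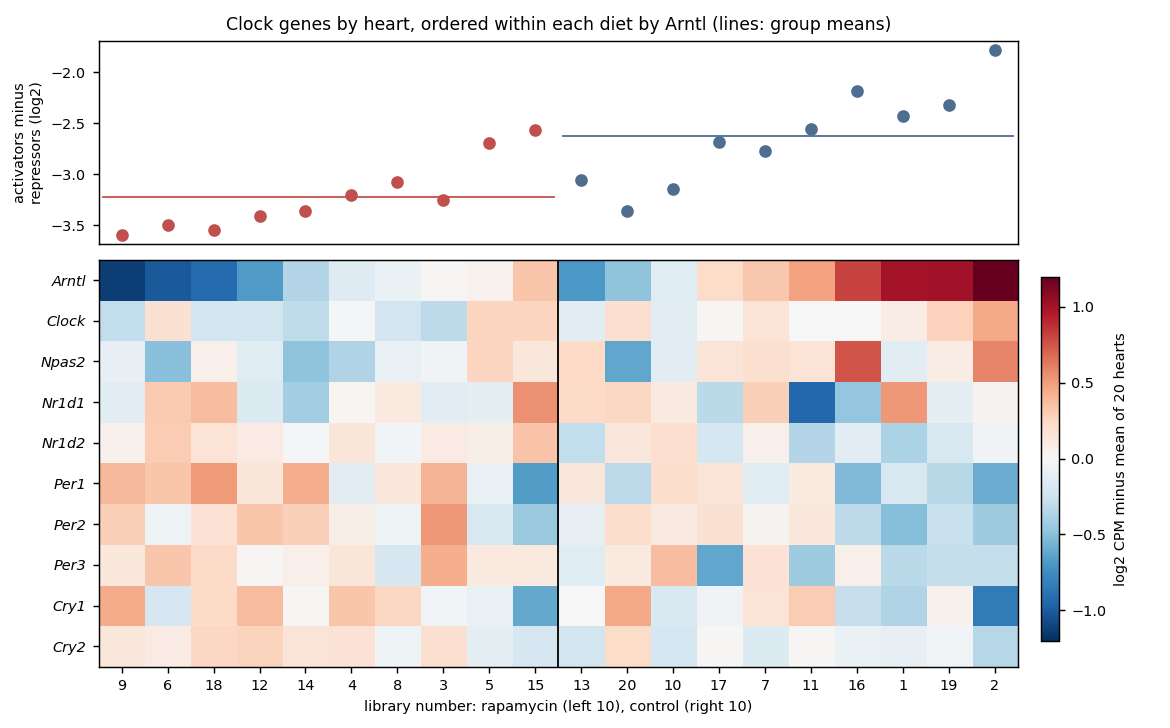
Upper panel, activators minus repressors (mean log2 CPM) in each heart with group means as lines; lower panel, log2 CPM of each member minus its mean over 20 hearts (colour), with hearts ordered within each diet by Arntl, rapamycin left and control right. Red runs along the Arntl row to control 2 at the far right, and blue stands for low values, as for Per1, Per2 and Cry1 in rapamycin 15 and control 2.

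Single hearts of both diets held the opposed pattern in part. Rapamycin 15 had the highest Arntl and Clock of its group and the lowest Per1, Per2, Cry1 and Cry2. Against that pattern, its Nr1d1 and Nr1d2 were also the highest of the group. Among controls, control 2 had the highest Arntl and Clock and the lowest Per1, Cry1 and Cry2, and control 20 had the highest Per2, Cry1 and Cry2 and the lowest Npas2. Clock in control 20, at 56.9 CPM, lay above the control median of 51.7 CPM. Rapamycin 15 and control 20 were among the 4 libraries with lung transcripts. Per1 and Per2 stood at 44.9 and 41.5 CPM in rapamycin 15, against 47.3 and 42.1 CPM in control 2. Nr1d1 stood at 145 CPM in rapamycin 15 against 101 CPM in control 2, Nr1d2 at 327 against 250 CPM and Per3 at 117 against 88.8 CPM.

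Within each diet, Arntl was set against the other 9 members over 10 hearts (log2 CPM, 2-sided permutation tests with 100000 resamples, Benjamini-Hochberg over 18 relations). None of the 18 passed, with a smallest permutation p, adjusted, of 0.166 for r and 0.278 for rho. The hearts had no recorded time of sampling, and the points share the depth and scaling of their libraries.

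Arntl and Nr1d1, its direct repressor, showed little relation. Pearson's r was 0.06 with rapamycin (permutation p = 0.877, Spearman's rho 0.14, p = 0.706) and -0.18 in controls (permutation p = 0.623, rho -0.22, p = 0.536). Without the 2 hearts farthest from the Arntl median, rapamycin 9 and 6 or control 13 and 2, r was 0.15 with rapamycin and -0.14 in controls. With 1 heart left out r ran from -0.36 to 0.23 with rapamycin and from -0.38 to -0.07 in controls, so the rapamycin value depended on single hearts.

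Against Per1 the relation was inverse in both diets. The r was -0.68 with rapamycin (permutation p = 0.0218, adjusted 0.166, rho -0.58, p = 0.088) and -0.63 in controls (permutation p = 0.0552, adjusted 0.166, rho -0.70, p = 0.0309). Without the 2 farthest hearts it was -0.69 with rapamycin and -0.38 in controls, so the control value rested in part on controls 13 and 2.

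Against Per2 the r was -0.41 with rapamycin (permutation p = 0.241, rho -0.36, p = 0.313) and -0.73 in controls (permutation p = 0.0205, adjusted 0.166, rho -0.70, p = 0.0306). It was -0.54 with rapamycin and -0.85 in controls without the 2 farthest hearts, and -0.71 in controls without control 19. Without control 13 the control value was -0.88 and passed (exact permutation test, adjusted p = 0.043). Whether r differed between the diets was not tested.

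Against Per3 the values were weak, r being -0.17 with rapamycin (permutation p = 0.646, rho -0.20, p = 0.583) and -0.38 in controls (permutation p = 0.280, rho -0.37, p = 0.296). They became 0.011 with rapamycin and -0.45 in controls without the 2 farthest hearts. The r with Cry1 was -0.52 with rapamycin and -0.63 in controls, or -0.70 and -0.54 without the 2 farthest hearts. That with the partner Clock was 0.34 with rapamycin and 0.63 in controls. Without the 2 farthest hearts the r with Clock was 0.60 with rapamycin and 0.22 in controls.

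**Figure D4:**
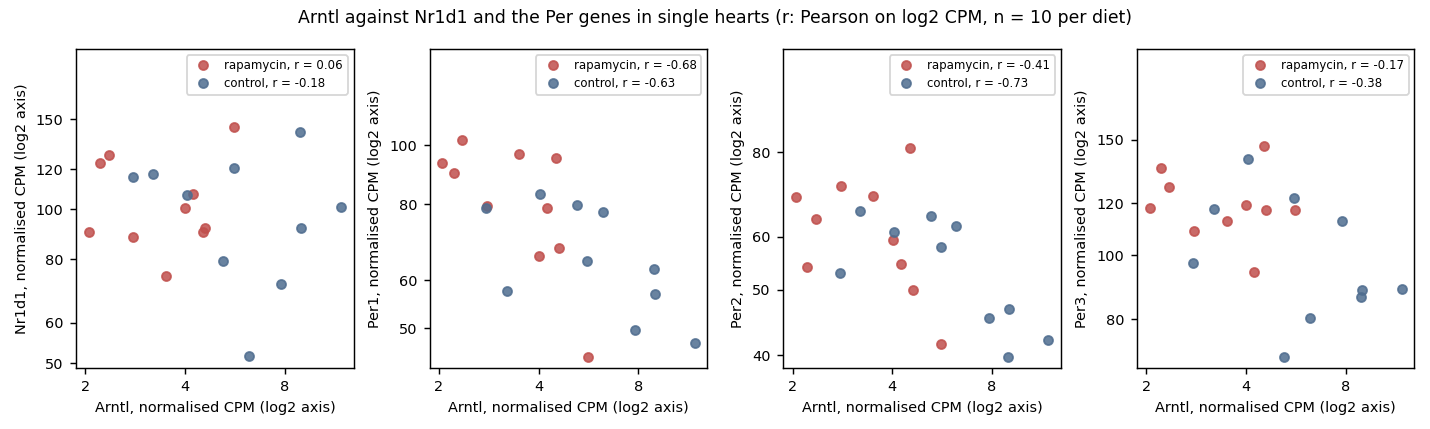
Arntl (horizontal axes) against Nr1d1, Per1, Per2 and Per3 (vertical axes), in normalised CPM on log2 axes, with 1 point per heart and Pearson's r of each diet (n = 10) in the legends. Per1 slopes down with Arntl in both diets (r = -0.68 with rapamycin, -0.63 in controls), while Nr1d1 shows little slope (0.06 with rapamycin, -0.18 in controls).

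Over all pairs of members, given here as a description with no test, most activator-repressor pairs were inverse. Of 21 activator-repressor pairs r was below 0 in 14 with rapamycin and in 19 in controls (median -0.32 with rapamycin and -0.34 in controls). The exceptions with rapamycin reached 0.68 for Clock with Nr1d2 and 0.54 for Clock with Nr1d1, pairs at 0.16 and 0.17 in controls. The rho of these pairs with rapamycin was 0.55 and 0.59, and rapamycin 15 was the highest heart of its group for Clock, Nr1d1 and Nr1d2. The 3 pairs of activators had r above 0 in both diets. Repressors did not form a single block: Per2 went with Cry2 (r = 0.86 with rapamycin, 0.49 in controls) and Cry1 with Cry2 (0.67 with rapamycin, 0.76 in controls), whereas Nr1d1 went against Per2 (-0.67 with rapamycin, -0.27 in controls). Nr1d1 and Nr1d2 were correlated at 0.79 with rapamycin (rho 0.62) and 0.30 in controls (rho 0.16).

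The wider pathway list reported here held 23 genes of the accessory loops, the kinases and ubiquitin ligases that set clock protein stability, and known clock outputs. Of these 22 were tested (Rorb had 3 to 16 reads per heart), 1 rose and none fell, beside 0.638% of all genes tested that rose and 2.48% that fell. At an unadjusted p under 0.05 there were 6 higher and none lower, beside 8.1% of all genes that were higher and 13.4% lower. The list's median log2 fold change was 0.14, and 19 of its 22 tested members lay above 0.

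Nampt, the rate-limiting enzyme of NAD salvage and a target of the activator pair, was the member of that list that rose. It stood at 295, 396 and 445 CPM with rapamycin, against 232, 296 and 392 CPM in controls, and 6 rapamycin hearts lay above every control. Its log2 fold change was 0.36 ± 0.10 (SE, adjusted p = 0.0457 by edgeR), but the call was lost in 14 of the 20 fits without 1 library (adjusted p 0.0174 to 0.0884 over the 20, by edgeR). The authors' deposited table of selected genes lists Nampt as well.

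The activating ROR receptors compete with the REV-ERBs at ROR elements. Rora had a log2 fold change of 0.26 ± 0.12 (SE, adjusted p = 0.223 by edgeR).

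The D-box factors, shared with the clock outputs, stood above 0 without passing. Hlf had a log2 fold change of 0.37 ± 0.14 (SE, adjusted p = 0.125 by edgeR, and 0.0312 without control 20), Dbp of 0.21 ± 0.13 (0.340), Tef of 0.13 ± 0.07 (0.301) and their antagonist Nfil3 of 0.27 ± 0.14 (0.256). Wee1, a cell cycle kinase under E-box control, was at 0.30 ± 0.11 (0.106). The casein kinases that phosphorylate PER were near 0, Csnk1d at -0.0095 ± 0.05 and Csnk1e at 0.10 ± 0.07, as was Fbxw11, a subunit of a ubiquitin ligase (0.0069 ± 0.05), none of them called. Btrc, another ubiquitin ligase gene of the list, was at 0.11 ± 0.05 (SE, unadjusted p = 0.0311, adjusted p = 0.185 by edgeR). The outputs Klf10 (-0.19 ± 0.11) and Por (-0.26 ± 0.18) were the other list members below 0, without passing. Both were highest in control 19 (Klf10 42.1 CPM, Por 157 CPM), the library with the most lung transcripts. Without control 19 their values were -0.096 for Klf10 and -0.038 for Por.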

How the data were processed

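Per the series' design text, paired reads of 50 bases were placed on MGSCv37 where they matched 1 site, allowing 2 mismatches, and per the submitters' processing notes edgeR was used in a role not given. Aligner, counter and strand setting: not given in the sources used here. The authors deposited raw read counts per gene symbol (34291 rows, 20 libraries) and CPM of 700 selected genes, which equal CPM from the count column totals for the 696 matched by symbol (largest difference 2.8e-05). The header of rapamycin 4 is spelled Rap where the title has Rapa.

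Counts were tested with edgeR 4.0.16 in R 4.3.3 (filterByExpr, TMM, robust quasi-likelihood test, 13940 genes, 10 libraries per diet, no covariate, no batch given in the labels). A call is a Benjamini-Hochberg adjusted p under 0.05 over all genes. The alternatives included DESeq2 1.42.0. Normalised CPM were scaled by TMM, with a prior count of 2 before taking log2. The SE was derived as the absolute log2 fold change over root F, and 95% intervals use the t distribution with the residual and prior degrees of freedom of the fit. Scripts were tested on simulated data. Among 90 same-diet pairs of libraries, chi-square over its degrees of freedom was at least 5.55, so none was a duplicate within sampling noise. Replicates were taken as separate animals from the design text.

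The members, the pathway list (Ciart matched as Gm129) and the marker lists were chosen with earlier results of these data known. A further 2 genes of the original pathway list are not reported here, and the list was counted without them. Named genes are the members, the pathway list, the immediate early list and the genes most like and most opposed to Arntl and Nr1d1. Thra, outside that rule, was named after its values were seen, for its exon overlap. Liver, thymus and adipocyte markers summed to 0.0941 to 331, 0 to 27.0 and 31.0 to 605 CPM with rapamycin and to 0.208 to 32.4, 0.123 to 5.92 and 35.9 to 513 CPM in controls.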

Additional observations from a re-analysis of the deposited data

How the results depend on the processing

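No paired analysis was possible because each library number occurs in 1 group only. Counts of genes called at an adjusted p under 0.05 by edgeR were 435 (89 higher, 346 lower with rapamycin). They were 1263 (44 higher, 1219 lower) on library totals, 220 (35, 185) with no filter, 769 (671 lower) with the immediate early covariate and 50 (10, 40) with the cardiomyocyte covariate, and 969 (322, 647) with DESeq2. The share of calls that were higher was 20.5%, against 3.48% on library totals, 30.5% without control 19 and 33.2% with DESeq2. Alternatives chosen after seeing the data were the fit without the robust option (469 calls) and leaving out the 4 libraries with lung transcripts (231 calls, 156 lower). Leaving out 1 library gave 133 to 754 calls (18 to 188 higher, 115 to 566 lower), the lowest without rapamycin 18 and the highest without rapamycin 5. The cause was not tested.

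Of the 10 members, 1 was called on library totals (Arntl, -0.98, adjusted p = 0.0279 by edgeR), beside 9.06% of all genes. DESeq2 called 2 members, beside 6.95% of all genes, and 1 was called without the lung libraries, beside 1.65%. With 1 library left out 0 to 2 members were called, beside 0.949% to 5.39% of all genes. Members at an unadjusted p under 0.05 numbered 3 on library totals (beside 30.5% of all genes), 2 with the immediate early covariate (22.4%), 3 with the cardiomyocyte covariate (13.2%) and 3 to 7 with 1 library left out (18.5% to 24.6%). Activators minus repressors stayed between -0.67 and -0.50 with 1 library left out. Nampt lost its call on library totals (0.24), with no filter (0.38), with either covariate (0.38 immediate early, 0.25 cardiomyocyte) and without the lung libraries (0.30).

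Signs changed on library totals for Nr1d1 (-0.072), Bhlhe40 (-0.090), Bhlhe41 (-0.020), Csnk1e (-0.026), Btrc (-0.011), Fbxw11 (-0.12), Timeless (-0.067), Tspan4 (-0.048) and the r of Arntl with Cry2 in controls (0.065). They changed with no filter for Csnk1d (0.0091), with the immediate early covariate for Csnk1d (0.013) and Fbxw11 (-0.011), and with the cardiomyocyte covariate for Bhlhe40 (-0.037), Timeless (-0.033), Usp2 (-0.070) and Por (0.099). Without the lung libraries they changed for Bhlhe40 (-0.0032), Csnk1d (0.00069), Timeless (-0.0066) and Por (0.091), and without the 2 farthest hearts for the r of Arntl with Per3 with rapamycin (0.011). With 1 library left out the values ran from -0.017 to 0.13 for Nr1d1, -0.0038 to 0.059 for Bhlhe40, -0.031 to 0.010 for Csnk1d, -0.014 to 0.028 for Fbxw11 and -8.6e-05 to 0.097 for Timeless. The r of Arntl ran from -0.36 to 0.23 with Nr1d1 and -0.46 to 0.28 with Nr1d2 with rapamycin, and in controls from -0.58 to 0.022 with Cry2 and -0.88 to -0.65 with Per2. Counting error alone, at the mean count over both diets, gives a coefficient of variation of 14.3% for Arntl and 18.3% for Npas2.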

Other observations

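For Arntl and for Nr1d1, the 13041 other genes averaging 2 CPM or more were ranked by their likeness to it. Likeness was measured as Pearson's r of log2 CPM over the 20 hearts after each diet's mean was subtracted. The values are a description, with no test, and the hearts share library depth and scaling. The most like Arntl were Psma3 (r = 0.76), Rgs19 (0.74), Nufip1 (0.74), Pigx (0.73) and Sdf2 (0.73), and none of these belongs to the member or pathway lists. The most opposed to Arntl were Aktip (-0.85), Angptl7 (-0.71), Tnpo2 (-0.71), the D-box factor Tef (-0.71) and Adamtsl4 (-0.70). Among the other members r with Arntl ran from -0.63 for Per1 to 0.48 for Npas2.

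For Nr1d1 the most like gene of all was Dbp, the D-box factor and clock output (r = 0.82), followed by Arhgef10 (0.73), Klra9 (0.71), Fxyd7 (0.70) and Vav2 (0.69). The most opposed were AA960436 (-0.78), H2-T22 (-0.76), Igtp (-0.75), Irgm2 (-0.75) and Il2rb (-0.74). Igtp and Irgm2 encode interferon-inducible GTPases, H2-T22 a non-classical MHC class I molecule and Il2rb an interleukin receptor chain of lymphocytes. None of the genes named here for their likeness had an adjusted p under 0.05 between the diets by edgeR.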
